A study of Mus musculus with 10 samples.

Results

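Nuclear receptors other than the thyroid hormone, retinoid X and Rev-erb receptors and Esrrb were followed in RNA from the mouse cochlea, with and without thyroid hormone deficiency. Members were taken by gene symbol from a list of 35 receptor genes. Of these, 34 matched a gene among the 18725 genes of the expression table and 29 had enough counts to be tested. The other 5 (Nr1i3, Hnf4a, Hnf4g, Nr2e1 and Nr0b2) are given by their counts, and Nr0b1 was not analysed here. A gene could pass the count filter through the libraries of 1 group alone, so counts over the 29 describe tested members and not all members.

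The tissue was the outer sulcus, an epithelial strip along the outer wall of the cochlea, from C57BL/6J mice at postnatal day 10. The 5 euthyroid libraries came from offspring of dams given vehicle. The 5 hypothyroid libraries came from offspring of dams that drank the antithyroid agents methimazole (at 0.05%) and sodium perchlorate monohydrate (at 1.0%), with sucrose (at 5.0%). Both treatments began at embryonic day 17 and ran to postnatal day 10. Pups received the agents through the dam, litters are not named in the labels, and a litter effect cannot be told apart from the treatment. A sucrose content is given for the hypothyroid group only, so an effect of sucrose cannot be told apart from the agents either. The labels' extraction text names femoral head cartilage at a later age, whereas every other label names the cochlea. Of the genes that mark the inner ear, Otor had 5477 CPM (counts scaled to a common library total) in euthyroid and 6057 in hypothyroid tissue, Otos 3904 and 56.0, and Coch 2867 and 261. The cartilage genes Col2a1 (32350 and 12480 CPM) and Col9a1 (13050 and 5256 CPM) were abundant in both groups. Other chondrocyte markers were lower, with Acan at 195 and 18.9 CPM and Matn1 at 10.9 and 17.7 CPM. Comp had 1.38 and 4.04 CPM and Hapln1 0.594 and 1.90 CPM.

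Nuclear receptors are transcription factors that bind DNA through zinc fingers, and many are switched by a small lipid-soluble ligand such as a retinoid, steroid, fatty acid, oxysterol or bile acid. Many of them pair with retinoid X receptors, the partners that thyroid hormone receptors also use, while steroid receptors bind DNA as homodimers and some orphan receptors bind as monomers. In the inner ear, retinoic acid receptors act in the development of the sensory epithelium, and the glucocorticoid and mineralocorticoid receptors mediate steroid control of ion transport.

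Library totals ran from 19781921 to 20063961 estimated counts in euthyroid and from 19298145 to 19407592 in hypothyroid tissue. Libraries of a group resembled each other closely, with Pearson's r over genes (not independent points) of 0.986 to 0.992. The test was edgeR's quasi-likelihood test over 14862 genes, with Benjamini-Hochberg adjusted p under 0.05 as the threshold and log2 fold changes given as hypothyroid minus euthyroid. Mean TMM composition factors were 0.912 (euthyroid) and 1.10 (hypothyroid). Over all genes the median difference was 0.04 on the log2 scale with them and 0.30 with library sizes alone, 0.15 with upper quartile factors, 0.28 on FPKM and 0.25 on TPM. Values with ± are means and SD of the 5 libraries of a group unless SE is named. Because whole tissue was sequenced, fewer cells of a type and less RNA per cell cannot be told apart. In the same libraries, all 8 macrophage markers rose, and of 7 melanocyte markers 5 rose and 2 fell. Falls were called in 9 of 10 osteoblast markers and 3 of 3 tested osteoclast markers. Of 6 tested hair cell markers 5 fell and 1 rose. Pericyte and smooth muscle markers fell in 4 of 6 and rose in 1. Blood endothelium markers fell in 5 of 6 and rose in 1. Beside these, 37.7% of all genes tested were called higher and 34.1% lower. Of 6 chondrocyte markers 3 fell and 3 rose. They summed to 42300 to 48700 CPM in euthyroid and 16800 to 18400 CPM in hypothyroid libraries, mostly Col2a1 and Col9a1, which fell. Of the spiral ligament fibrocyte markers 6 of 9 fell and 2 rose. Their sum was 22300 to 26200 CPM in euthyroid and 12500 to 15200 CPM in hypothyroid libraries. Of the outer sulcus and root cell markers 6 of 10 fell and 3 rose. Outer sulcus and root cell markers summed to 8040 to 8790 CPM in euthyroid and 3370 to 4070 CPM in hypothyroid libraries. Most of this sum was Epyc (3977 and 1734 CPM) and Sparcl1 (3510 and 1408 CPM). The risers were Dpp10 (7.09-fold), Slc26a7 (3.70-fold) and Aqp5 (3.64-fold). Of 6 epithelial markers 4 rose, 1 fell and 1 did not pass. They summed to 653 to 712 CPM in euthyroid and 727 to 857 CPM in hypothyroid libraries. The part of these cell types in the results was not tested.

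Most receptor genes that changed were lower in hypothyroid tissue. Of the 29 tested, 6 rose, 17 fell (Nr1h2 among them, whose sign turned under 3 other scalings) and 6 did not pass. Among all genes tested 71.8% were called, 37.7% higher and 34.1% lower, against 79.3%, 20.7% and 58.6% of the receptors. With library sizes alone, 9 receptors were higher and 14 lower, and the higher share of called genes went from 26.1% to 39.1% for receptors and from 52.5% to 74.7% for all genes. Changes of at least 2-fold were called in 12 receptors, 2 upward and 10 downward, where 17.2% of all genes reached that size, 9.25% upward and 7.91% downward. The groups did not overlap in 17 receptors, or 58.6%, a share near the 57.9% of all genes. The median log2 fold change was -0.48 for the receptors and 0.04 for all genes, and the median absolute change was 0.86 and 0.38.

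**Figure D1:**
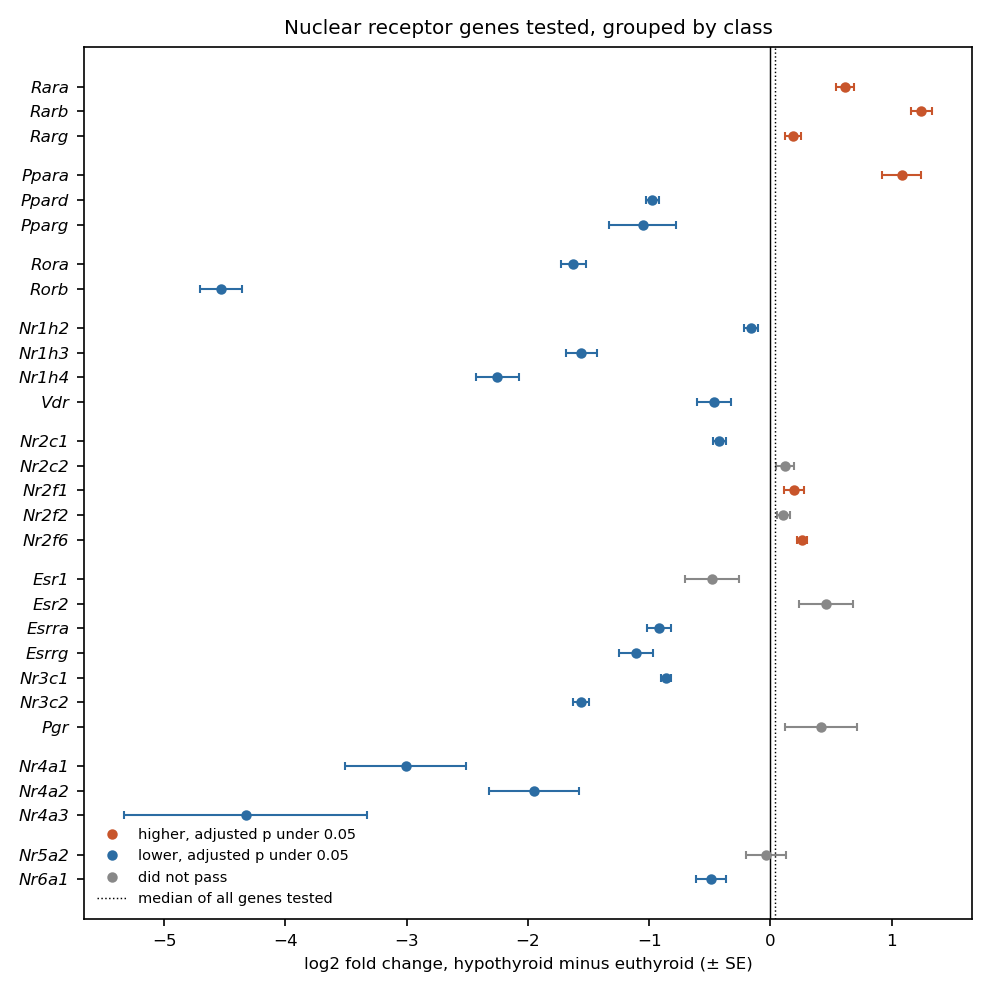
Log2 fold change (hypothyroid minus euthyroid, horizontal axis) with its standard error for the 29 tested receptor genes, grouped by class, in orange where higher, blue where lower and grey where the test was not passed. The 3 retinoic acid receptor genes lie right of 0, and Rorb (-4.53), Nr4a3 (-4.33) and Nr4a1 (-3.01) lie farthest left.

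Retinoic acid receptor genes all rose. These receptors (RARs) bind all-trans retinoic acid and sit with a retinoid X receptor on direct repeats of a short core. Rarb is itself a textbook target of retinoic acid through such a repeat. A match to such a repeat, GTTCA followed after 6 bases by GTTCA and searched on both strands, lay at positions -52 to -37 from a RefSeq start of Rarb, shown in capitals in the 250 bases before that start on the minus strand of GRCm38.p6, chr14:16575477-16575726, inside the Rarb gene (chromosome 14, 16430839 to 17082331). Among 32851 windows of that length before RefSeq starts, 22 (0.067%) held this match, and of the 33 listed receptors with a window, Rarb was the only member with it. The sequence is shown because it is the element through which RARs are known to act on a member gene, and the match is a description of letters, not of binding.
Rarb: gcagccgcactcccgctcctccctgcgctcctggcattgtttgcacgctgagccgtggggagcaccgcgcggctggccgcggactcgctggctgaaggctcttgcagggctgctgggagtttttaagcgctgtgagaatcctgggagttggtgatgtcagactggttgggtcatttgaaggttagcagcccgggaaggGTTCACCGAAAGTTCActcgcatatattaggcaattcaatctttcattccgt

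Rarb had 24.4, 27.1, 19.1, 20.3 and 22.9 CPM in the 5 euthyroid libraries and 59.7, 48.7, 50.8, 55.5 and 54.7 CPM in the 5 hypothyroid ones. Every hypothyroid library was above every euthyroid one, a 2.37-fold rise from 22.8 ± 3.20 to 53.9 ± 4.28 CPM (1.24 ± 0.09 SE on the log2 scale; adjusted p = 7.69e-09, edgeR). By annotation 38.4% of Rarb exon bases are shared with exons of other genes, Top2b and Gm48162 on the opposite strand, and strand was not stated for these libraries. Top2b had 227 CPM in both groups.

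Rara had 25.3, 20.8, 19.97, 19.6 and 22.3 CPM in euthyroid and 36.4, 34.0, 32.5, 31.2 and 31.6 CPM in hypothyroid libraries, again without overlap (1.53-fold, edgeR adjusted p = 2.46e-06). Rarg, the most abundant of the 3, rose only 1.14-fold, from 72.1 ± 6.84 to 82.0 ± 6.03 CPM, with overlapping groups. Its adjusted p of 0.022 in edgeR became 0.076 without euthyroid replicate 4 and 0.0591 without hypothyroid replicate 4. As a share of the summed RAR level in TPM (a transcript abundance that adjusts for gene length), Rarb went from 19.6% ± 1.52 to 31.8% ± 1.14 and Rarg from 62.6% ± 2.26 to 49.2% ± 1.81. These shares do not depend on library scaling, and their ranges did not overlap.

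Of 13 listed genes for retinoic acid synthesis, binding and breakdown, 10 were tested, of which 4 rose, 3 fell and 3 did not pass (list median 0.04 on the log2 scale, as over all genes). Cyp26b1, which breaks down retinoic acid, rose 3.93-fold from 5.09 ± 1.02 to 20.03 ± 6.09 CPM (adjusted p = 4.38e-06, edgeR). The synthesis enzyme gene Aldh1a1 fell 6.69-fold, from 558 ± 58.0 to 83.4 ± 11.4 CPM. Aldh1a2, also a synthesis enzyme gene, rose 1.91-fold with overlapping groups (edgeR adjusted p = 0.0187). Stra6, a retinol uptake gene, fell 1.44-fold (edgeR adjusted p = 0.0181), a call lost with library sizes alone (0.213), with upper quartile factors (0.0549), on FPKM (0.271), on TPM (0.218) and without euthyroid replicate 1 (0.0504).

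**Figure D2:**
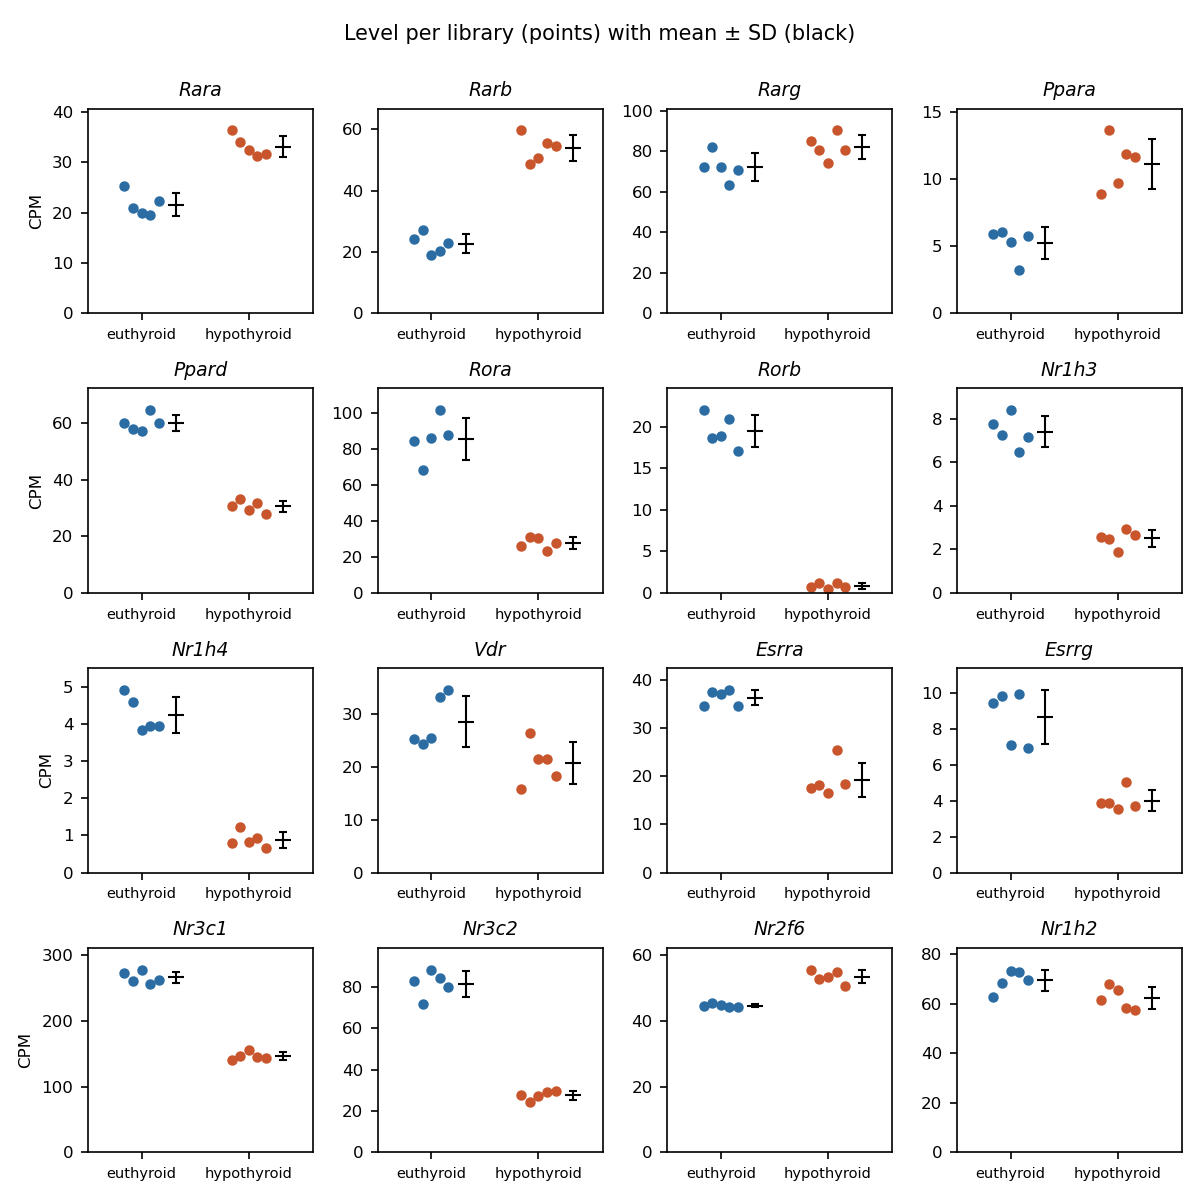
CPM (vertical axis, from 0) of 16 receptor genes in each of the 5 euthyroid (blue) and 5 hypothyroid (orange) libraries, with mean ± SD in black. Groups are apart in 13 of the panels and overlap for Rarg, Vdr and Nr1h2. The 16 genes were picked for display, and groups were apart in 58.6% of the 29 tested receptors and 57.9% of all genes tested.

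The peroxisome proliferator-activated receptors, which bind fatty acids and their derivatives, moved in opposite directions. Ppara, best known for fatty acid oxidation in the liver, had 5.89, 6.08, 5.30, 3.21 and 5.76 CPM in euthyroid and 8.88, 13.6, 9.74, 11.9 and 11.6 CPM in hypothyroid libraries. The groups did not overlap and the rise was 2.12-fold (1.08 ± 0.16 SE on the log2 scale; adjusted p = 2.38e-05, edgeR). Ppard, the widely expressed form, fell without overlap from 59.9, 57.9, 57.3, 64.5 and 60.1 CPM to 30.8, 33.0, 29.2, 31.7 and 28.0 CPM (1.96-fold, edgeR adjusted p = 5.75e-10). Pparg, the form that drives fat cell formation, fell 2.08-fold from 1.30 ± 0.353 to 0.623 ± 0.247 CPM (adjusted p = 0.00318, edgeR), with overlap between the groups. Of 5 adipocyte markers 4 were in the table, none had enough counts to be tested, and their summed level was 0.108 to 0.27 CPM in euthyroid and 0 to 0.14 CPM in hypothyroid libraries.

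Ppara took 3.78% ± 0.786 of the summed PPAR level in TPM in euthyroid and 13.6% (11.2% to 16.0%) in hypothyroid tissue, while Ppard held 92.7% ± 1.37 and 83.3% ± 1.58. Among 16 tested PPAR target genes 6 rose, 8 fell and 2 did not pass (list median -0.07 on the log2 scale), but with library sizes alone 8 were higher and 5 lower, and on FPKM 8 and 6. Angptl4, a lipase inhibitor gene, rose 4.27-fold from 7.86 ± 0.743 to 33.6 ± 8.78 CPM. Lpl, the lipoprotein lipase gene, fell 6.27-fold from 33.4 ± 3.66 to 5.32 ± 0.637 CPM, and the mitochondrial carrier gene Ucp3 fell 7.10-fold from 1.98 CPM (log2 fold change -2.83, and -2.05 on FPKM).

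The ROR genes, whose products bind DNA as monomers and activate clock genes such as Arntl, both fell. Rorb had 22.0, 18.7, 18.9, 20.9 and 17.1 CPM in the euthyroid libraries and 0.701, 1.14, 0.434, 1.2 and 0.706 CPM in the hypothyroid ones. It was scarce in every hypothyroid library, with 89 counts over all 5, and fell 23.1-fold (-4.53 ± 0.17 SE on the log2 scale; adjusted p = 8.33e-12, edgeR). On a log2 scale with 0.1 added to the value, limma gave -3.39 on FPKM and -3.90 on TPM. Rorb lies on chromosome 19 from 18930609 to 19111196 (GRCm38.p6) and is known for roles in retina and cerebral cortex.

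Rora, known for Purkinje cell survival in the cerebellum, had 84.5, 68.3, 86.0, 101 and 87.7 CPM in euthyroid and 25.8, 31.2, 30.6, 23.4 and 27.7 CPM in hypothyroid libraries. The groups were far apart and the fall was 3.09-fold (-1.63 ± 0.10 SE on the log2 scale; adjusted p = 8.96e-09, edgeR). Rorb held 17.9% ± 2.79 of the summed TPM of both genes in euthyroid and 2.83% ± 1.25 in hypothyroid tissue. Of 6 tested ROR target genes 4 fell and 2 rose (list median -0.46 on the log2 scale). The clock activator genes Npas2 and Clock fell 3.22-fold and 1.61-fold, while the clock repressor genes Nfil3 and Cry1 rose 1.78-fold and 1.18-fold.

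Receptors for oxysterols, bile acids and vitamin D were lower by very different amounts. Nr1h4 encodes the bile acid receptor FXR, whose known sites are the liver and intestine. It had 4.91, 4.58, 3.84, 3.94 and 3.93 CPM in euthyroid and 0.795, 1.24, 0.819, 0.923 and 0.659 CPM in hypothyroid libraries. All hypothyroid libraries were below all euthyroid ones, at 4.76-fold (-2.25 ± 0.17 SE on the log2 scale; adjusted p = 1.84e-08, edgeR).

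Nr1h3, the gene of the oxysterol receptor LXR alpha, is abundant in macrophages and liver. It fell without overlap from 7.78, 7.27, 8.40, 6.48 and 7.15 CPM to 2.57, 2.47, 1.88, 2.95 and 2.68 CPM (2.94-fold, edgeR adjusted p = 4.71e-08). In the same libraries the summed level of the 8 macrophage markers rose from 263 to 291 CPM in euthyroid to 412 to 545 CPM in hypothyroid tissue, so Nr1h3 and these markers moved in opposite directions. Its partner gene Nr1h2 (LXR beta), expressed in most tissues, had 69.3 ± 4.36 and 62.1 ± 4.43 CPM. That fall of 0.16 on the log2 scale (edgeR adjusted p = 0.0252) became a value of 0.11 with library sizes alone (edgeR adjusted p = 0.0781). It was 0.10 by FPKM and 0.06 by TPM, so the direction of Nr1h2 depended on the scaling.

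Of 9 tested LXR target genes 5 fell, 1 rose and 3 did not pass (list median -0.43 on the log2 scale). The fatty acid desaturase gene Scd1 fell 3.18-fold from 466 ± 44.6 to 147 ± 16.35 CPM, and Pltp, which encodes a phospholipid transfer protein, 3.15-fold. Abca1, the cholesterol exporter gene, rose 1.32-fold (edgeR adjusted p = 0.00312). Abcg5 and Abcg8, partner sterol exporter genes, were under the count filter, with summed counts of 4 and 5 in euthyroid against 93 and 36 in hypothyroid tissue, and were picked out after their values were seen. The count of higher LXR target genes was 2 without any 1 euthyroid library or hypothyroid replicate 3, 3 in DESeq2 or without a filter, and 5 on TPM.

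Vdr, the vitamin D receptor gene, had 25.2, 24.3, 25.4, 33.1 and 34.5 CPM in euthyroid and 15.9, 26.3, 21.4, 21.5 and 18.2 CPM in hypothyroid libraries. Hypothyroid replicate 2 overlapped the euthyroid range, and the 1.38-fold fall (edgeR adjusted p = 0.00975) was not called with library sizes alone (0.182), on FPKM (0.182) or on TPM (0.115). Cyp24a1, the vitamin D breakdown enzyme and the best-known Vdr target, had 637 counts in all euthyroid libraries together and 2 in the hypothyroid ones. The euthyroid level was 373 times the hypothyroid one (95% exact binomial interval 103 to 3090, counting error only; edgeR adjusted p = 3.05e-11). Of 7 tested genes of vitamin D metabolism and response 3 rose, 2 fell and 2 did not pass (list median 0.73 on the log2 scale), with Calb1, a calcium buffer gene, 2.01-fold lower. The median value was that of a gene that did not pass, and the 3 risers had means under 1 CPM in both groups. With a minimum count of 50 in the filter, 3 genes of the list were tested, 0 higher and 1 lower. Osteoblast markers, from cells rich in Vdr, summed to 1140 to 1770 CPM in euthyroid and 89.7 to 149 CPM in hypothyroid libraries, and their part in the Vdr result was not tested.

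Nr1i3, the xenobiotic receptor CAR of the liver, had 7 counts in all euthyroid libraries together and 32 in the hypothyroid ones. Its ratio was 3.90 (95% exact binomial interval 1.69 to 10.5, counting error only; exact two-sided permutation test p = 0.0159, 1 of 5 such tests). Its exons share 74.9% of their bases with Tomm40l on the opposite strand, which had 23.4 and 20.3 CPM, so the reads may not be its own.

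In the NR2 branch the 5 tested genes had log2 fold changes between -0.42 and 0.26. Nr2f6, a repressor of immune genes, had 44.4, 45.5, 44.8, 44.3 and 44.2 CPM in euthyroid and 55.6, 52.9, 53.4, 54.8 and 50.6 CPM in hypothyroid libraries. The libraries within a group were close together, so a small rise was called without overlap (0.26 ± 0.04 SE on the log2 scale; adjusted p = 6.98e-05, edgeR), although 54.4% of its exon bases are shared with Ocel1 (4.19 and 3.58 CPM). Nr2f1, which encodes COUP-TFI and is required for normal inner ear development in mice, rose 1.15-fold from 34.1 ± 3.25 to 39.1 ± 4.38 CPM. Its call (edgeR adjusted p = 0.0426) was lost in 8 of 20 alternative analyses, with adjusted p up to 0.139. Nr2f2 (COUP-TFII), the most abundant gene of the branch in CPM, had 98.1 ± 5.39 and 106 ± 7.48 CPM and did not pass (edgeR adjusted p = 0.0946).

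Nr2c1 and Nr2c2 encode the testicular receptors TR2 and TR4, which form a heterodimer. Nr2c1 had 50.7, 55.4, 53.5, 52.8 and 50.8 CPM in euthyroid and 37.4, 42.3, 36.3, 41.5 and 39.1 CPM in hypothyroid libraries, a 1.34-fold fall without overlap (edgeR adjusted p = 4.5e-06). Nr2c2 had 71.0 ± 8.14 and 77.2 ± 6.43 CPM and did not pass (edgeR adjusted p = 0.177), and 31.2% of its exon bases are shared with Mrps25 and Gm44249 on the opposite strand. Nr2c2 and Nr2f2 were both called higher with library sizes alone, with upper quartile factors, on FPKM and on TPM.

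Hnf4g, a liver and gut receptor gene, had 11 counts in all euthyroid libraries together and 40 in the hypothyroid ones, a ratio of 3.11 (95% exact binomial interval 1.56 to 6.71, counting error only). Its groups did not overlap (exact two-sided permutation test p = 0.00794, the smallest this design allows). Hnf4a had 0 and 1 counts and Nr2e1, a gene of neural stem cells and retina, 3 and 0 counts, so a difference was not detectable at this depth.

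Both corticosteroid receptor genes fell. Nr3c1, the glucocorticoid receptor gene and the highest in CPM of all members, had 273, 261, 278, 257 and 262 CPM in euthyroid and 140, 147, 156, 146 and 144 CPM in hypothyroid libraries. The spread within groups was small and the 1.82-fold fall left no overlap (-0.86 ± 0.04 SE on the log2 scale; adjusted p = 1.21e-10, edgeR). Nr3c2, the mineralocorticoid receptor gene (chromosome 8, 76898083 to 77245012), had 82.7, 71.8, 88.2, 84.0 and 79.96 CPM in euthyroid and 27.5, 24.3, 27.0, 29.2 and 29.9 CPM in hypothyroid libraries. All hypothyroid values were under the lowest euthyroid one, a 2.95-fold fall (-1.56 ± 0.07 SE on the log2 scale; adjusted p = 2.17e-11, edgeR). Nr3c2 made up 25.7% ± 1.23 of the summed TPM of both genes in euthyroid and 17.6% ± 1.42 in hypothyroid tissue, with ranges apart.

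Genes around these receptors were tested from a list of 16, of which 4 rose, 6 fell and 6 did not pass (list median -0.13 on the log2 scale). Hsd11b1, whose enzyme makes active glucocorticoid inside cells, fell 32.6-fold from 40.4 ± 10.25 to 1.24 ± 0.394 CPM (adjusted p = 6.46e-09, edgeR). Sgk1, a kinase gene induced by both receptors, fell 3.15-fold from 1088 ± 300 to 345 ± 71.4 CPM. Hif3a rose 13.9-fold from 3.53 ± 0.385 to 49.2 ± 19.26 CPM. Fkbp5, a receptor chaperone gene and common glucocorticoid marker, rose 4.02-fold from 7.475 ± 1.94 CPM with overlapping groups (edgeR adjusted p = 0.00723). Its level was 67.0 CPM in hypothyroid replicate 2 and 9.49 to 27.9 CPM in the other hypothyroid libraries. Without that library the log2 fold change of Fkbp5 was 1.48 instead of 2.01.

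The estrogen-related receptors, orphan receptors that drive mitochondrial genes together with PGC-1 coactivators, both fell. Esrra had 34.6, 37.5, 37.0, 37.9 and 34.6 CPM in euthyroid and 17.5, 18.3, 16.5, 25.4 and 18.4 CPM in hypothyroid libraries (1.89-fold, edgeR adjusted p = 7.51e-07). Esrrg, which is prominent in heart, brain and inner ear, had 9.45, 9.85, 7.11, 9.97 and 6.93 CPM in euthyroid and 3.88, 3.90, 3.52, 5.03 and 3.72 CPM in hypothyroid libraries (2.16-fold, edgeR adjusted p = 4.3e-06). Neither gene's groups overlapped, and hypothyroid replicate 4 was the highest of its group for both. Of 8 tested ERR targets and coactivator genes 6 fell, 1 rose and 1 did not pass (list median -0.62 on the log2 scale). The respiratory chain gene Cox5a and the citric acid cycle gene Idh3a fell 1.77-fold and 1.75-fold, and the muscle regulator gene Perm1 rose 1.55-fold.

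Receptors for sex steroids were low and did not pass. Esr1, the estrogen receptor alpha gene, had 2.81 ± 0.608 and 2.01 ± 0.714 CPM (log2 fold change -0.48, edgeR adjusted p = 0.067), and without hypothyroid replicate 3, at 3.23 CPM, it was called lower (-0.71, adjusted p = 0.00513). It was also called without euthyroid replicate 2 (-0.60, adjusted p = 0.0273). Esr2 (estrogen receptor beta) had 1.28 ± 0.153 and 1.76 ± 0.540 CPM (edgeR adjusted p = 0.075), with a value of 0.58 (adjusted p = 0.0219) without hypothyroid replicate 2 and 0.72 (adjusted p = 0.00885) with library sizes alone. Pgr, the progesterone receptor gene and a classic estrogen target, had 0.803 ± 0.237 and 1.08 ± 0.434 CPM (edgeR adjusted p = 0.225). Of 5 tested sex steroid genes 3 fell and 2 did not pass, with Wnt4, a signal of female gonad development, 8.13-fold lower and Igfbp4, a binding protein gene of insulin-like growth factors, 1.37-fold lower.

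The NR4A genes fell steeply and were the most uneven of the 29 tested members among euthyroid libraries. NR4A receptors have no known classic ligand, and their genes are switched on within minutes by cyclic AMP and other signals, partly through the CREB factor. The core TGACG of the cAMP response element, in capitals on either strand, occurred 4 times in the 250 bases before a RefSeq start of each gene. Of 27025 genes with such windows, 19.8% held at least 1 core and 44 (0.163%) held at least 4 in a window, of which the 3 NR4A genes are the only listed receptors. The limit of 4 was chosen after the counts were seen, and the full palindrome TGACGTCA was in none of these windows. Sequences are from GRCm38.p6: Nr4a1 from chr15:101266596-101266845 on the plus strand, within the annotated gene, Nr4a2 from chr2:57124004-57124253 on the minus strand and Nr4a3 from chr4:48045055-48045304 on the plus strand, past an earlier annotated start of that gene.
Nr4a1: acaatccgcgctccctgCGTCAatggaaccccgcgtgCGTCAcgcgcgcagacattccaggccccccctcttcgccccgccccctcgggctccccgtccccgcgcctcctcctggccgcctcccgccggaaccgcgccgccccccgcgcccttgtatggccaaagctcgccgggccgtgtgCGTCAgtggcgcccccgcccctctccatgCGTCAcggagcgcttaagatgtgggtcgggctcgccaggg
Nr4a2: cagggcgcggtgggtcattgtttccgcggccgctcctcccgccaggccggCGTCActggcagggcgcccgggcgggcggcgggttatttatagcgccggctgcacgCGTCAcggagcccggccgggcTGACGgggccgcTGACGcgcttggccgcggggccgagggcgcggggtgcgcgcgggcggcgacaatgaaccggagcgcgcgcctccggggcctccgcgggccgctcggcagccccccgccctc
Nr4a3: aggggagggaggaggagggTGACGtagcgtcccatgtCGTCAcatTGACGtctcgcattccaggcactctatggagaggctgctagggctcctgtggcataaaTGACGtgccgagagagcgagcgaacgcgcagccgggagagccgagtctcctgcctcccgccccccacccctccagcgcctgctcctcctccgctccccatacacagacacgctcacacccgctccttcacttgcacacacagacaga

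Nr4a1 had 32.4, 44.9, 133, 161 and 76.5 CPM in euthyroid replicates 1 to 5 and 13.6, 12.6, 12, 7.84 and 9.66 CPM in the hypothyroid ones. The euthyroid libraries were widely spread and still all lay above the hypothyroid ones (-3.01 ± 0.50 SE on the log2 scale; adjusted p = 0.000575, edgeR). Nr4a2, required for midbrain dopamine neurons, had 13.2, 11.7, 31.8, 41.6 and 22.1 CPM against 7.34, 4.99, 6.75, 5.77 and 6.22 CPM (-1.95 ± 0.37 SE on the log2 scale; adjusted p = 0.00109, edgeR).

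Nr4a3 had 1.46, 1.02, 13.4, 21.7 and 9.48 CPM in euthyroid and 0.327, 0.523, 0.868, 0.323 and 0.283 CPM in hypothyroid libraries (-4.33 ± 1.00 SE on the log2 scale; adjusted p = 0.00392, edgeR). With 0.1 added to the value, limma gave -2.47 on FPKM and -2.93 on TPM for Nr4a3. In euthyroid tissue replicate 4 was highest, replicate 3 next and replicates 1 and 2 lowest for all 3 genes. Euthyroid replicates 1 and 2 were also lowest for genes outside this family, picked out after their values were seen. Sgk1 had 760.5, 779, 1222, 1418 and 1262 CPM, Hsd11b1 29.97, 29.1, 50.8, 48.3 and 44.05 CPM. Coch had 2292, 2164, 3339, 3699 and 2839 CPM. Egr1 did not share this order, with 67.8, 100.6, 88.9, 69.5 and 82.2 CPM. The euthyroid coefficients of variation were 62.3% for Nr4a1, 52.6% for Nr4a2 and 92.2% for Nr4a3, against a median of 7.97% over all genes tested. Without euthyroid replicate 4 the log2 fold changes were -2.70, -1.67 and -3.77.

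Per1, Fos and Egr1 were picked out after their values were seen. Per1, a clock gene that also responds to cyclic AMP and glucocorticoid, had 42.1, 52.7, 145, 173 and 154 CPM in the euthyroid libraries, but it did not pass the test (edgeR adjusted p = 0.529), with 53.4 to 136 CPM in hypothyroid tissue. Fos had 8.21 to 14.3 CPM and Egr1 67.8 to 101 CPM in euthyroid tissue, with neither highest in replicate 4, and both fell in the test. Of 11 immediate early genes 7 fell, 0 rose and 4 did not pass (list median -0.90 on the log2 scale), with Egr3 3.89-fold and Junb 3.26-fold lower. The labels give no time or order of dissection, and its part in these levels was not tested.

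**Figure D3:**
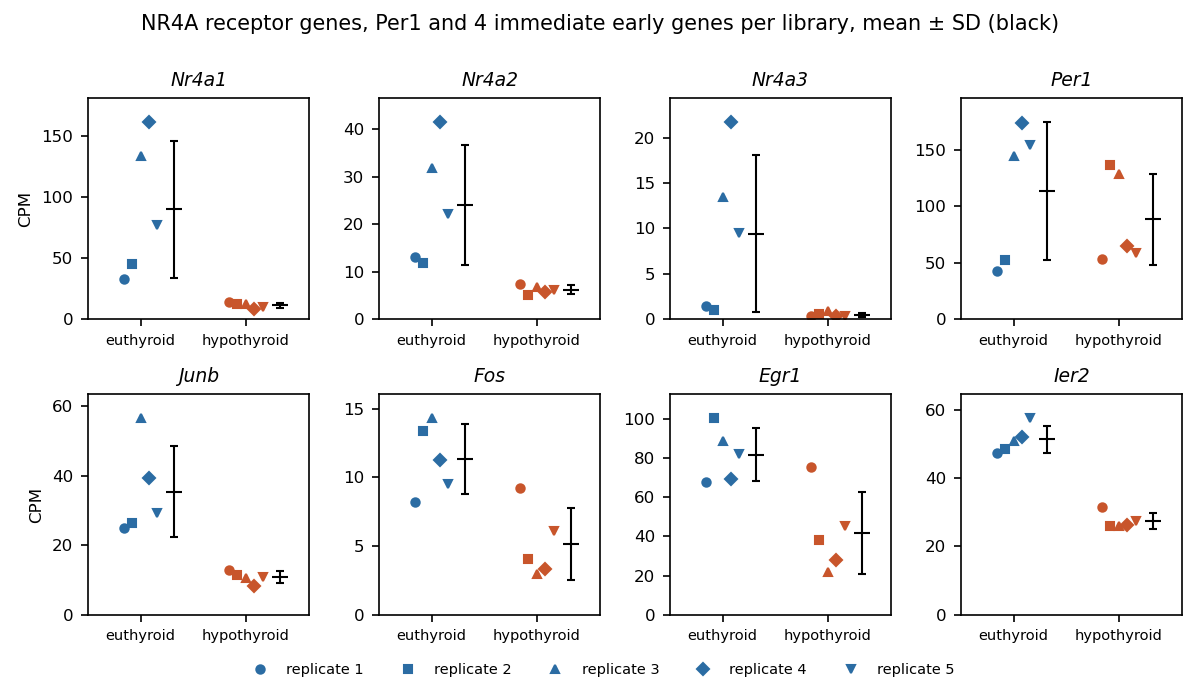
CPM (vertical axis, from 0) of the 3 NR4A genes, Per1 and 4 immediate early genes in each library, with a marker shape per replicate number and mean ± SD in black; the same number in the 2 groups does not pair libraries. Euthyroid replicates 3, 4 and 5 are above replicates 1 and 2 for the NR4A genes and Per1, and all hypothyroid NR4A values are below the euthyroid ones.

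Of the remaining receptors, Nr6a1, a repressor of germ cell genes, fell 1.40-fold from 10.9 ± 1.27 to 7.74 ± 1.22 CPM (adjusted p = 0.00215, edgeR). Its fall was not called with library sizes alone (0.0974 adjusted), by FPKM (0.138) or by TPM (0.0883). Nr5a2 (LRH-1), which acts in liver and early embryo, had 3.77 ± 0.748 and 3.67 ± 0.660 CPM (edgeR adjusted p = 0.853), and the sign of its log2 value of -0.04 changed with the scaling. Nr0b2 (SHP), a receptor without a DNA-binding domain that is a classic target of Nr1h4 in liver, had 5 and 14 counts (ratio 2.39, 95% exact binomial interval 0.814 to 8.48, counting error only; exact two-sided permutation p = 0.349).

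Compared per transcript length in the authors' TPM, the order of receptor levels differed between the groups. In euthyroid tissue the highest means were Nr3c1 at 94.3 ± 3.45, Nr4a1 at 82.1 ± 50.0, Nr1h2 at 76.7 ± 3.81, Rarg at 57.4 ± 6.45 and Nr2f2 at 56.4 ± 4.02 TPM. Nr4a1 overlapped its neighbours on both sides, and Rarg and Nr2f2 overlapped each other. In hypothyroid tissue Nr1h2 led at 79.96 ± 4.42, followed by Rarg at 77.1 ± 6.6, Nr2f2 at 71.0 ± 5.69, Nr2f6 at 62.6 ± 2.32 and Nr3c1 at 60.7 ± 1.57 TPM, and each of these overlapped the next. Rarb moved from rank 14 to rank 7 and Nr4a1 from rank 2 to rank 15.

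The summed TPM of the 34 members was 696 to 820 in euthyroid and 637 to 685 in hypothyroid libraries. RAR genes held 12.4% ± 2.05 of it in euthyroid and 23.7% ± 1.11 in hypothyroid tissue, and the COUP-TF family (Nr2f1, Nr2f2 and Nr2f6) 19.1% ± 2.03 and 28.4% ± 0.926. Nr3c1 and Nr3c2 together held 17.1% ± 1.42 and 11.2% ± 0.538, and the NR4A genes 13.4% ± 7.27 and 2.61% ± 0.406. The NR4A ranges were 5.80% to 22.4% and 2% to 3.05%, and none of these 4 shares overlapped between the groups. The share of the LXR genes did, at 10.7% to 12.4% and 12.1% to 13.7%. All these shares are parts of the same sum, so a fall in some genes raises the shares of others. In the edgeR fit, the COUP-TF genes rose only 1.15-fold (Nr2f1), 1.08-fold (Nr2f2, which did not pass) and 1.2-fold (Nr2f6).

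**Figure D4:**
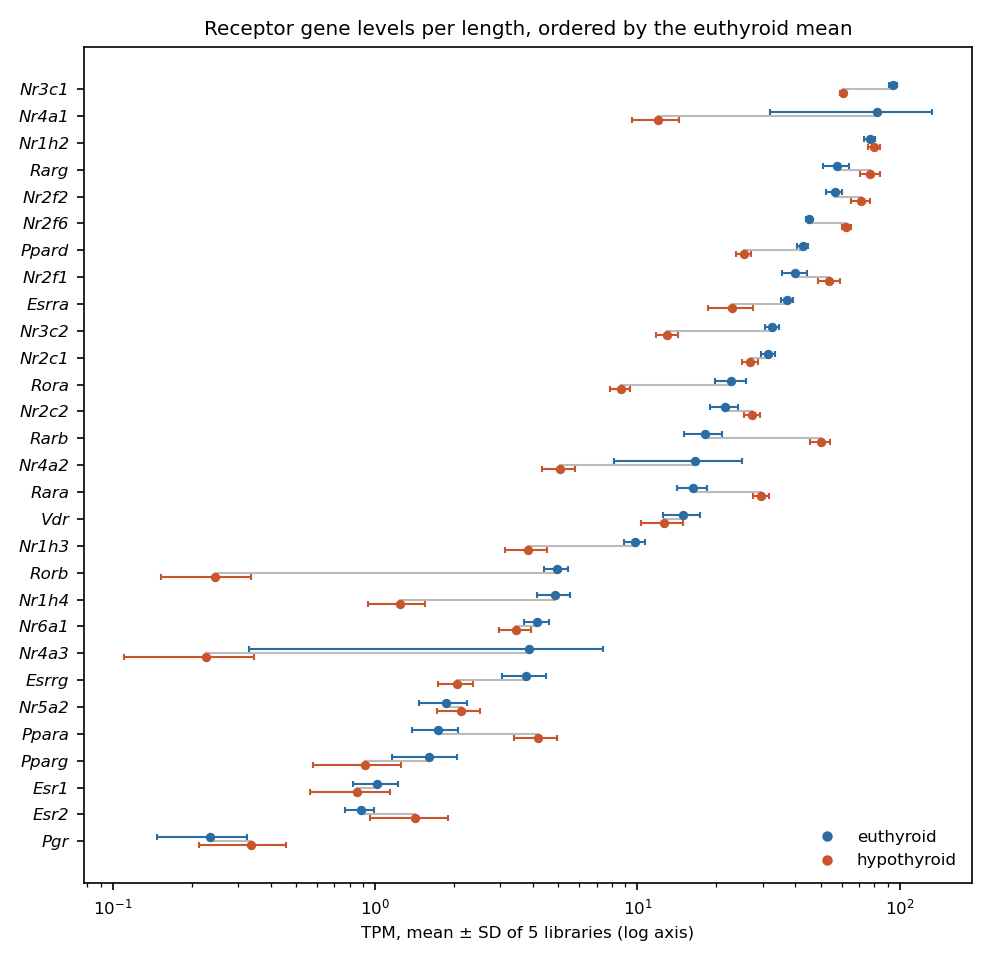
TPM (horizontal log axis) as mean ± SD of 5 euthyroid (blue) and 5 hypothyroid (orange) libraries for the 29 tested receptor genes, ordered by the euthyroid mean, with a grey line joining the means of a gene. Rorb, Nr4a3 and Nr4a1 have the longest lines to the left, and Rarb and Ppara the longest to the right.

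**Figure D5:**
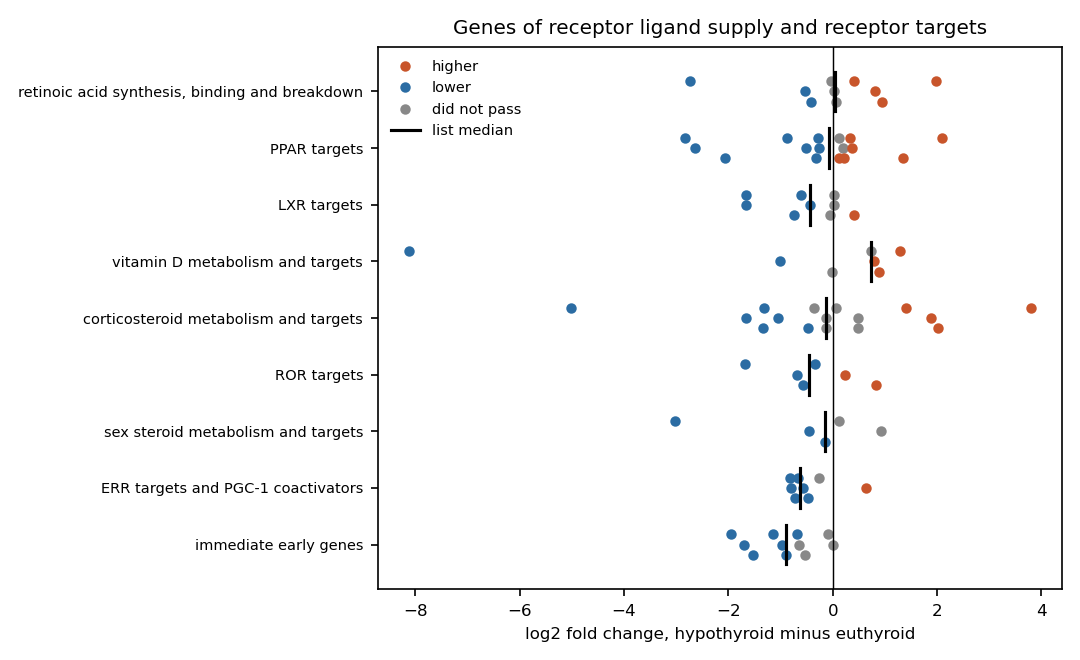
Log2 fold change (hypothyroid minus euthyroid, horizontal axis) of each tested gene in the 8 lists of receptor ligand supply and targets and in the immediate early list, with the list median as a black bar. Cyp24a1 is the point near -8 and Hsd11b1 the point near -5, and the medians lie between -0.90 and 0.73.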

How the data were processed

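Per the labels' protocols, polyadenylated RNA was sequenced as single-end 50-base reads on a BGI instrument, and the submitters' processing notes name HISAT2 2.0.4, Bowtie2 2.2.5, RSEM 1.2.12 and build GRCm38.p6 without roles. The authors deposited expected counts, FPKM and TPM per gene and library, per the file headers. Another 10 columns of library-scaled counts and 8 of group means were not used. Expected counts were rounded, filtered with filterByExpr (minimum count 10) and tested with edgeR 4.0.16 (TMM, robust quasi-likelihood fit, group as the only term, R 4.3.3). SE was derived from each fold change and its F statistic. CPM used TMM-adjusted totals. The fit was tested on simulated data with few changed genes, as many higher as lower. That setting differs from these data, where 71.8% of genes were called, so it does not bear on the choice of scaling. The labels number the libraries but do not name animals, so p-values measure only the spread between libraries. Replicate numbers did not pair libraries. The 5 members under the filter were tested by exact permutation.

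The members and lists were chosen with earlier results of these data known. All members were named, and from each list at most the 2 higher and 2 lower called genes with the largest change and a mean of at least 1 CPM. A gene that this rule would name is not reported here. Alternatives were other scalings, DESeq2 1.42.0, limma 3.58.1 on log2(FPKM + 0.1) or log2(TPM + 0.1), other filters, a replicate block, a Y-linked covariate and leaving out each library. RefSeq windows (GRCm38.p6) matched 33 of the 35 symbols. Figures used matplotlib 3.10.9 and Python 3.11.15.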

Additional observations from a re-analysis of the deposited data

Results flagged for a closer look

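In 13 of the 124 groups of 5 libraries, the highest or lowest library stood apart from the other 4 by more than Dixon's critical value of 0.71 of the range. Groups without any counts (Hnf4a in euthyroid and Nr2e1 in hypothyroid tissue) are in the 124 but could not be flagged. Chance flags about 1 in 20 groups, a rate that does not apply where a single library held all counts. Hypothyroid replicate 4 was high for Esrra (25.4 CPM, others 16.5 to 18.4), Esrrg (5.03 CPM, others 3.52 to 3.90) and Idh3a (62.4 CPM, others 49.6 to 53.1). Without that library the log2 fold changes of Esrra and Esrrg were -1.04 and -1.20, larger than with it. Hypothyroid replicate 3 was high for Esr1 (3.23 CPM, others 1.43 to 1.93) and low for Wnt4 (2.31 CPM, others 3.52 to 3.96). Hypothyroid replicate 2 was high for Hif3a (82.3 CPM, others 32.4 to 46.6) and Hnf4g (0.570 CPM from 12 counts, others 0.323 to 0.337). Hypothyroid replicate 1 was high for Nr5a2 (4.81 CPM, others 3.14 to 3.61). Hypothyroid replicate 5 was low for Nr1i3 (0.141 CPM from 3 counts, others 0.323 to 0.374) and the single library with a count of Hnf4a (0.0471 CPM, others 0). In euthyroid tissue, replicate 4 was low for Ppara (3.21 CPM, others 5.30 to 6.08), replicate 2 low for Nr6a1 (8.62 CPM, others 11.1 to 11.6) and replicate 1 the only library with Nr2e1 (0.162 CPM from 3 counts, others 0).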

How the results depend on the processing

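Over 20 alternative analyses, 19 of the 29 tested receptors kept their direction and their side of the threshold in every one they could be tested in, and 18 of these were called. Scaling moved the balance of directions most: higher and lower counts over all genes were 8649 and 2930 with library sizes alone and 8718 and 3096 with limma on FPKM. The number of higher receptors was 6 as reported, 9 with library sizes alone, 10 on FPKM (30 tested) and 11 on TPM (32 tested). The log2 value of Nr1h2 was 0.11 with library sizes alone, 0.098 on FPKM and 0.059 on TPM, and that of Nr5a2 was 0.23, 0.21 and 0.19, and 0.073 with upper quartile factors, with the cause not tested. Leaving out 1 library at a time gave 21 to 24 called receptors, 5 to 7 of them higher and 16 to 18 lower, and Nr5a2 ranged from -0.157 (without euthyroid replicate 4) to 0.03 (without euthyroid replicate 1), with 0.017 without hypothyroid replicate 2. Same-numbered libraries deviated together with correlations of -0.08 to 0.11, and 1 of 5 euthyroid libraries matched its own number best. With the replicate block 24 receptors and 10392 genes were called, and Esr1 passed (-0.50, adjusted p = 0.0258) while Aldh1a2 did not (adjusted p = 0.0577). The 5 members under the count filter were tested by exact permutation, or in edgeR without the filter. With library sizes alone, the lists of retinoic acid, vitamin D and sex steroid genes had 1 lower, 5 higher and 3 higher genes against 3, 3 and 0 as reported. The sex steroid list had 1 higher gene without euthyroid replicate 2 or hypothyroid replicate 3.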
